A study of Mus musculus with 6 samples.

Results

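A set of 10 genes of the club cell and of airway secretion was followed through bulk RNA-seq of whole mouse lung: Scgb1a1, Scgb3a1, Scgb3a2, Cyp2f2, Cbr2, Cckar, Upk3a, Gsta3, Hp and Bpifa1. They were taken by symbol from the 55335 genes of the deposited count table, and all 10 were found. Of these, 9 passed the filter on low counts that left 17075 genes for testing, and Bpifa1 did not. The lungs came from embryos at embryonic day 18, with 3 libraries labelled control and 3 labelled Gata4 CKO, each described as a biological replicate. Every embryo carried Prx1Cre, a Cre transgene active in lateral plate mesoderm, the tissue that gives rise to limb and body wall connective tissue. Control embryos were Prx1Cre;Gata4 F/+, with a floxed and an intact Gata4 allele. Gata4 CKO embryos were Prx1Cre;Gata4 F/D, with a floxed and a deleted allele, so that all their cells, airway epithelium included, lack an intact copy on the deleted side. Per the design text, the diaphragm of Gata4 CKO embryos is defective and their lungs are small and proliferate less, and the comparison was made to study how such lungs differ from control lungs. RNA was taken from the whole organ, so fewer cells of a type and less RNA per cell cannot be told apart.

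Club cells are the non-ciliated, dome-shaped secretory cells that line the conducting airways of the mouse. They secrete small proteins of the secretoglobin family into the airway lining fluid, carry enzymes that metabolise inhaled chemicals, and can divide to replace airway epithelium after injury. They arise from endoderm under the transcription factor Nkx2-1, with Notch signalling favouring the secretory over the ciliated fate, and their products accumulate as the fetal lung matures. Scgb3a2 is made early in airway development, Scgb1a1 later, and Scgb3a1 mostly in the larger, proximal airways.

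Total counts ran from 15156415 to 30848948 per library, and the 10 genes together took 0.154% to 0.285% of them in controls against 0.326% to 0.351% in Gata4 CKO. The targeted gene, Gata4, had read counts of 84, 63 and 90 (controls 1, 2, 3) and of 117, 76 and 97 (Gata4 CKO 1, 2, 3). It was thus not reduced by label. These are counts per gene, in which the deleted part cannot be told apart from the rest. Every direction given here rests on the labels. The lung transcription factor gene Nkx2-1 stood between 229.9 and 294 CPM (read counts scaled to a common library size) in all libraries, and Sftpc, the surfactant gene of alveolar type 2 cells, had a log2 fold change of 0.75 ± 0.28 (SE). Both groups held male and female embryos. The column labels carry a number of unstated meaning, with 4229 shared by controls 1 and 2 and Gata4 CKO 1, 4503 on control 3 alone, and 4723 on the other Gata4 CKO pair. Gata4 CKO 1 also stood apart in transcript length. The median log2 difference from the control mean was 0.41 there for 4695 genes whose longest transcript is under 2000 bases and -0.54 for 3435 genes over 5000 bases, against -0.02 to 0.05 for those classes in the other 5 libraries. Of the 9 tested genes, 7 lie in the short class and the other 2, Cckar and Gsta3, in the middle class.

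Promoter sequences of 6 of the 10 genes were found in RefSeq on GRCm38.p6 (Bpifa1, Cbr2, Cyp2f2, Gsta3, Scgb3a1 and Upk3a). The 250 bases before the RefSeq start are shown for Cyp2f2 and Gsta3, whose levels over the 6 libraries were the most alike of all pairs, and for Cbr2 and Scgb3a1, which lie on the same chromosome and whose levels in Gata4 CKO 1 lay on opposite sides of the controls. Capitals mark matches, on either strand, to TGTTTNC (a FOXA motif), CTCAAG (an NKX2-1 motif) or TTNNGNAA (a C/EBP motif). None of the matches in these 4 promoters overlap.
Cyp2f2 (chr7:27119705-27119954, plus strand): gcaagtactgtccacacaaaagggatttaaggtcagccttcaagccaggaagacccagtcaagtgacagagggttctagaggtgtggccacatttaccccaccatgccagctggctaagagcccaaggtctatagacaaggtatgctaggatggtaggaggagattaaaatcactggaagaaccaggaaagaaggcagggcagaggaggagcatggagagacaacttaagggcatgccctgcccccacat
Gsta3 (chr1:21240335-21240584, plus strand): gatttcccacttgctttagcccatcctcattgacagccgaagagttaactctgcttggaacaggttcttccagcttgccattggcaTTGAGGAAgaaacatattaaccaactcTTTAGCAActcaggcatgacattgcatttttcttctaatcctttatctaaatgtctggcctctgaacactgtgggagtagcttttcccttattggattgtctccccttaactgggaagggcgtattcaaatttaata
Cbr2 (chr11:120732022-120732271, minus strand): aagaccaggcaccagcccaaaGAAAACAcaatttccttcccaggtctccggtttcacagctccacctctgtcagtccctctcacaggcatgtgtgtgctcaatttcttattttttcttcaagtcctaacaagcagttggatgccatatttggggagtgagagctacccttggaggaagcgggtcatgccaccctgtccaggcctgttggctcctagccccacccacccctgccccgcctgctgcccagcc
Scgb3a1 (chr11:49663345-49663594, plus strand): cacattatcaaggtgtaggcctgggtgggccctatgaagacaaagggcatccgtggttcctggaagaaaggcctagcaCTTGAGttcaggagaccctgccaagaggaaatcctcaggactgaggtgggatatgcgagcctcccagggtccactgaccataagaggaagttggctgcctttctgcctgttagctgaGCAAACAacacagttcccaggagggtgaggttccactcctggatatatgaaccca
The FOXA letters were in 2 of the 6 promoters (Cbr2 and Scgb3a1) and in 17.8% of 32851 promoters of the same length, the NKX2-1 letters in 3 of 6 (Bpifa1, Scgb3a1 and Upk3a) and 13.3%, and the C/EBP letters in 3 of 6 (Bpifa1, Gsta3 and Upk3a) and 36.8%. The Cyp2f2 window held none of the 3, and the FOXA match of Scgb3a1 began 55 bases before the start. These are matches of letters in a short window and show neither binding nor its absence.

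Per exon length, the genes fell into a high tier and a low tier. Scgb3a2, Scgb1a1 and Cbr2 ranked 23, 28 and 31 among the 17075 tested genes by CPM per kb of exon averaged over all libraries, Hp 177 and Cyp2f2 269. In controls Scgb3a2 stood at 680 ± 194 CPM per kb, Scgb1a1 at 592 ± 446 and Cbr2 at 463 ± 164 (SD between libraries, n = 3). On these exon lengths Scgb3a2 was above Cbr2 within every library, while the order of Scgb3a2 and Scgb1a1 changed between libraries. Hp followed at 148 ± 43.4 and Cyp2f2 at 106 ± 36.8 CPM per kb, and Hp was the higher within every library. Below them came Cckar at 13.4 ± 0.45, Scgb3a1 at 10.1 ± 2.44, Upk3a at 8.7 ± 2.17 and Gsta3 at 1.52 ± 0.49 CPM per kb. The Gsta3 value depends on the gene model. Its annotated exons add up to 4344 bases, and on the longest transcript (2792 bases) its control mean was 2.36 CPM per kb.

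**Figure D1:**
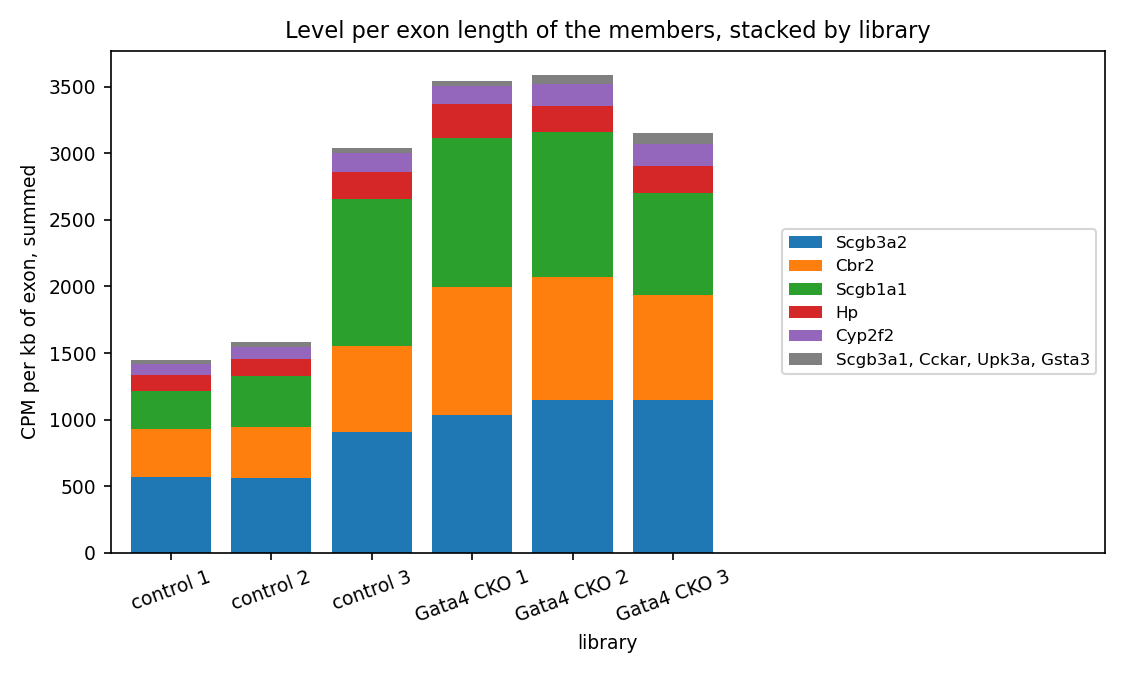
Levels of the tested members per kb of exon (vertical axis, CPM per kb), stacked for each of the 6 libraries (horizontal axis). The stacks of controls 1 and 2 reach 1444 and 1582 CPM per kb, and the other 4 libraries, control 3 included, lie between 3042 and 3590.

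The secretoglobins are small secreted proteins of the airway lining. Scgb1a1 (ENSMUSG00000024653, chromosome 19, 9083636 to 9087958, minus strand, GRCm38, protein-coding) encodes the club cell secretory protein that defines the cell type. It had 139, 181 and 526 CPM over controls 1 to 3, then 532, 516 and 365 CPM over Gata4 CKO 1 to 3. Control 3 was thus above Gata4 CKO 2 and 3, and the groups overlapped. The log2 fold change, Gata4 CKO minus control, was 0.74 ± 0.47 (SE, edgeR adjusted p = 0.691), and it was 1.56 without control 3 and 0.41 without control 1. Within controls the highest Scgb1a1 value was 3.78 times the lowest, the widest control range of the 9 genes.

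Scgb3a2 (ENSMUSG00000038791) encodes a secretoglobin that marks the airway epithelium early. It had 503, 498 and 796 CPM over controls 1 to 3, then 909.6, 1007 and 1008 CPM over Gata4 CKO 1 to 3. Every Gata4 CKO library lay above every control, with control 3 the closest. Group means were 599 ± 171 and 975 ± 56.6 CPM (SD, n = 3 each), and for Scgb3a2 edgeR gave 0.70 ± 0.22 (SE) as the log2 fold change, at an adjusted p of 0.529. With the transcript length trend of each library removed, Gata4 CKO 1 lay below control 3, at 766 against 819.6 CPM, and the log2 fold change was 0.57.

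Scgb3a1 (ENSMUSG00000064057, chromosome 11, 49663610 to 49665118, plus strand) encodes a secretoglobin of the proximal airways. It had 4.52, 7.44 and 6.16 CPM over controls 1 to 3, then 2.49, 23.2 and 30.4 CPM over Gata4 CKO 1 to 3. Its highest and lowest values were both in libraries labelled Gata4 CKO, and the high pair shares the column number 4723. The lowest value rests on 51 reads, for which counting alone gives an error of 14.0%. For Scgb3a1 edgeR gave 1.63 ± 0.72 (SE) as the log2 fold change, at an adjusted p of 0.576. Without Gata4 CKO 3 it was 1.08. Without Gata4 CKO 1 it was 2.16 and passed the threshold (edgeR adjusted p = 0.0305), but then no column number occurs in both groups, so that number and group cannot be told apart. With the column number as a term, where the contrast rests on Gata4 CKO 1 against controls 1 and 2 alone, it was -1.26. That fit called all 9 members, but also 42.8% of all tested genes.

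**Figure D2:**
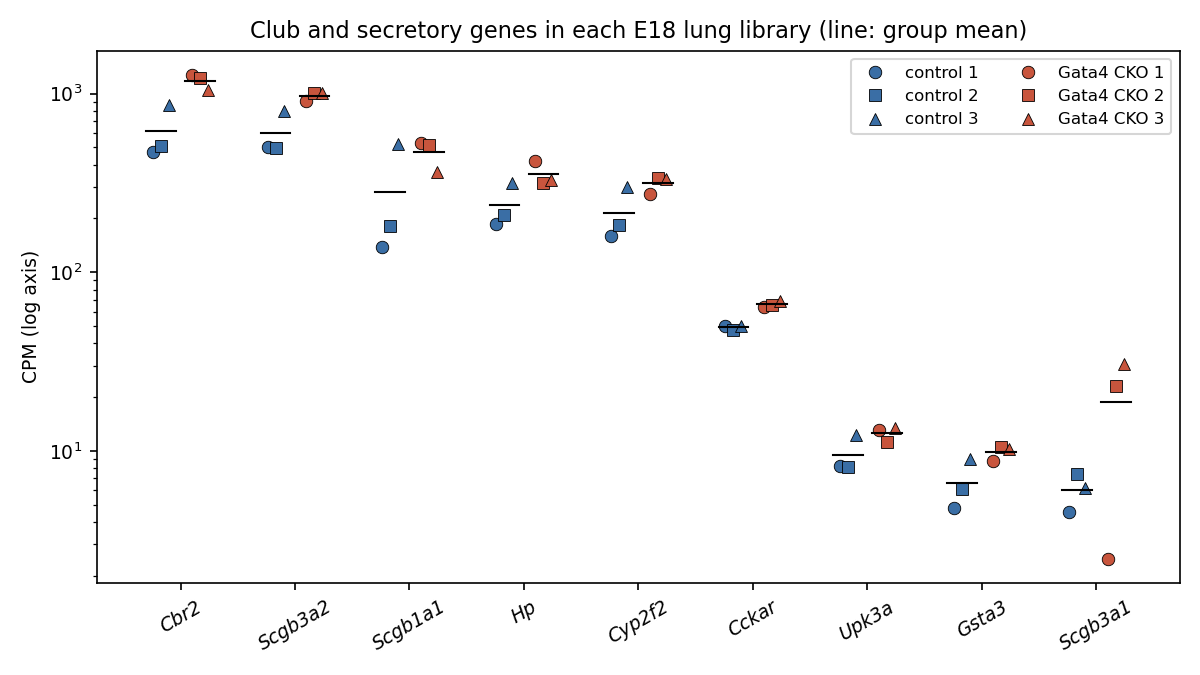
CPM of each tested member (log axis) in every library, with controls in blue, Gata4 CKO in red, a symbol for each replicate number and a line at the group mean. Groups separate for Cbr2, Scgb3a2 and Cckar, control 3 (blue triangle) sits near the red points for most genes but not for Cckar or Scgb3a1, and Scgb3a1 in Gata4 CKO 1 is at 2.49 CPM, below all controls.

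The enzymes of the set act on small, often foreign, molecules. Cbr2 (ENSMUSG00000025150, chromosome 11, 120729489 to 120732114, minus strand) encodes a carbonyl reductase abundant in mouse lung. It had 471, 507 and 865 CPM over controls 1 to 3, then 1274, 1230.3 and 1047 CPM over Gata4 CKO 1 to 3. Both groups were fully separated, and within the shared column number Gata4 CKO 1 stood 2.60-fold above the mean of controls 1 and 2. With the length trend removed, Gata4 CKO 1 had 1081 CPM, against 487 and 550 CPM in controls 1 and 2. Without that removal, means were 614 ± 217 and 1184 ± 120.4 CPM (SD, 3 libraries each). For Cbr2 edgeR gave 0.95 ± 0.26 (SE) as the log2 fold change, at an adjusted p of 0.529. DESeq2 gave Cbr2 an adjusted p of 0.0468, the only member it called. Of the 50-base words of Cbr2, 12.1% also occur in transcripts of other genes. Gm11771 shared the most and had 44 to 196 reads per library, so a small share of reads may be split between Cbr2 and Gm11771.

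Cyp2f2 (ENSMUSG00000052974, chromosome 7, 27119909 to 27133660, plus strand) encodes the cytochrome P450 that activates naphthalene in mouse club cells. It had 159.7, 185 and 299 CPM over controls 1 to 3, then 274, 338 and 334 CPM over Gata4 CKO 1 to 3. Control 3 lay above Gata4 CKO 1. For Cyp2f2 edgeR gave 0.56 ± 0.25 (SE) as the log2 fold change, at an adjusted p of 0.580, and 0.87 without control 3. Its exons overlap those of the antisense gene Gm15883 over 274 bases, but that gene had at most 2 reads in any library.

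Gsta3 (ENSMUSG00000025934, chromosome 1, 21240589 to 21265661, plus strand) encodes an alpha-class glutathione transferase, which conjugates reactive products of such oxidation. It had 4.76, 6.09 and 8.94 CPM over controls 1 to 3, then 8.75, 10.5 and 10.3 CPM over Gata4 CKO 1 to 3, with control 3 above Gata4 CKO 1. For Gsta3 edgeR gave 0.57 ± 0.26 (SE) as the log2 fold change, at an adjusted p of 0.584, and 0.85 without control 3. Cyp2f2 and Gsta3 moved nearly in step across the libraries, although Cyp2f2 is much the more abundant. Their centred log2 CPM profiles differed by a root mean square of 0.05, the smallest of all 36 pairs of members.

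Cckar and Upk3a encode proteins of the cell surface. Cckar (ENSMUSG00000029193, chromosome 5, 53697776 to 53707705, minus strand) encodes the cholecystokinin A receptor, a G protein-coupled receptor. It had 50.2, 47.4 and 50.3 CPM over controls 1 to 3, then 64.2, 65.5 and 69.0 CPM over Gata4 CKO 1 to 3. The groups were tight and did not overlap, and control 3 lay with the other controls. The means were 49.3 ± 1.65 and 66.2 ± 2.50 CPM (SD, n = 3 each), and for Cckar edgeR gave 0.43 ± 0.12 (SE) as the log2 fold change, at an adjusted p of 0.529. It ranged from 0.40 to 0.45 when each library was left out in turn, and it was 0.44 with the length trend removed. Scaled to genes shared by all epithelium it was 0.28, and the groups then overlapped.

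Upk3a (ENSMUSG00000022435, chromosome 15, 85017141 to 85022547, plus strand) encodes a uroplakin that, in mouse airways, marks a subset of club cells near neuroendocrine bodies. It had 8.21, 8.06 and 12.2 CPM over controls 1 to 3, then 13.1, 11.3 and 13.4 CPM over Gata4 CKO 1 to 3. Control 3 lay above Gata4 CKO 2. For Upk3a edgeR gave 0.41 ± 0.22 (SE) as the log2 fold change, at an adjusted p of 0.644, and it was 0.63 without control 3 and 0.23 when scaled to genes shared by all epithelium.

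Hp and Bpifa1 encode secreted defence proteins. Hp (ENSMUSG00000031722, chromosome 8, 109575128 to 109579172, minus strand) encodes haptoglobin, which binds free haemoglobin and is also made by liver and neutrophils. It had 187, 209 and 317.3 CPM over controls 1 to 3, then 419, 316.7 and 328 CPM over Gata4 CKO 1 to 3. Control 3 exceeded Gata4 CKO 2 by less than 1 CPM, and for Hp edgeR gave 0.58 ± 0.23 (SE) as the log2 fold change, at an adjusted p of 0.554. Of 16 liver genes 7 were tested, with 3 positive log2 fold changes, a median of -0.25 and 0 passing, and Alb, the albumin gene, stood at 16.8 CPM in control 1, where Hp was lowest, and from 0.93 to 3.04 CPM elsewhere. The summed level of all 16 was 319.8, 244 and 720.5 CPM over controls 1 to 3, then 778, 800.3 and 652 CPM over Gata4 CKO 1 to 3, in the direction of Hp and with control 3 high as well. Most of that sum was Trf, the transferrin gene, with 237 to 793 CPM per library and a log2 fold change of 0.84. The neutrophil gene S100a8 had 11.7, 8.01 and 18.4 CPM over controls 1 to 3, then 23.6, 14.8 and 18.9 CPM over Gata4 CKO 1 to 3. Over all 13 neutrophil markers the summed level ran from 44.7 to 101.8 CPM in controls and from 66.9 to 106.6 CPM in Gata4 CKO, all 13 had reads, and of 9 tested 8 had positive log2 fold changes with a median of 0.44 and 0 passing. The part of either list in the Hp values was not tested. For Hp the log2 fold change was 0.38 when scaled to genes shared by all epithelium.

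Bpifa1 (ENSMUSG00000027483, chromosome 2, 154142880 to 154149219, plus strand) encodes an antimicrobial protein of the upper airways. It had 0 reads in the 3 controls and 1, 1 and 0 reads in Gata4 CKO 1, 2 and 3. A count of 0 allows up to 3 reads, which is 0.14, 0.144 and 0.0983 CPM in controls 1, 2 and 3, so no difference could be seen at this depth. Such limits cover counting error only.

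Across the set, 0 of the 9 tested genes passed an adjusted p of 0.05 in edgeR, as did 0.0% of all tested genes. All 9 had a positive log2 fold change, where 51.5% of all tested genes did, and the median was 0.58 against 0.01. At an unadjusted p under 0.05 edgeR had 4 of 9 on the higher side (Cbr2, Cckar, Scgb3a2 and Hp), against 3.77% of all genes. DESeq2 called 1 of 9, against 0.383% of the 29780 genes to which it gave a p-value. These include low-count genes without an adjusted p, such as Bpifa1, which could not be called. Groups did not overlap for 3 of 9 (Cbr2, Scgb3a2 and Cckar), all higher, against 7.69% of all genes. Each p-value sets the group difference against the spread between libraries within a group. Column numbers differ within each group, so that spread can hold differences between numbers as well as between embryos. With 3 against 3 libraries, an exact permutation test of a single value cannot go below p = 0.1.

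The 9 genes mainly separated controls 1 and 2 from the other 4 libraries. For 8 of 9, all but Scgb3a1, both of these controls lay below every other library, which held for 13.2% of all tested genes. Cckar met this only narrowly, with control 1 at 50.24 and control 3 at 50.28 CPM, against 64.2 to 69.0 CPM in Gata4 CKO. Control 3 was above both controls 1 and 2 for 8 of 9 (Cckar again narrowly), against 40.1% of all genes. It was at least 1.5-fold above the mean of controls 1 and 2 for 7 of 9 genes, against 8.82% of all genes. Over those 7 it ran from 1.51-fold (Upk3a) to 3.29-fold (Scgb1a1). The exceptions were Cckar and Scgb3a1, each 1.03-fold. These features of control 3 were chosen for description after its values were seen. Without control 3, 8 of 9 genes had groups that did not overlap, against 16.2% of all genes, and the median log2 fold change was 0.87. Without Gata4 CKO 1, the library with the length trend, it was 0.65 and groups did not overlap for 6 of 9 against 21.5%, and edgeR called 1 of 9, Scgb3a1, against 0.656%. Within the shared column number, Gata4 CKO 1 was between 1.31-fold (Cckar) and 3.33-fold (Scgb1a1) above the mean of controls 1 and 2 for 8 of the 9 genes, and Scgb3a1 was at 0.417 times that mean. These folds keep the length trend of Gata4 CKO 1. With that trend removed, Scgb1a1 had 460 CPM in Gata4 CKO 1, against 141 and 199 CPM in controls 1 and 2. Upk3a then had 11.1 CPM, against 8.49 and 8.75 CPM.

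Scgb3a1 was the gene least like the rest. In centred log2 CPM over the 6 libraries, its root mean square difference from the other 8 genes ran from 1.09 to 1.37, while the 28 pairs among those 8 ran from 0.05 to 0.67. Gata4 CKO 1 was below the other 5 libraries for Scgb3a1 alone among the 9 genes, as it was for 33.3% of all tested genes. Within libraries, the level of Scgb1a1 per length was 38.6, 30.5 and 107.2 times that of Scgb3a1 over controls 1 to 3, then 268, 28.0 and 15.1 times over Gata4 CKO 1 to 3. The ratio of Scgb3a2 to Cyp2f2 was by contrast nearly fixed, at 6.12 to 7.25 in controls and 6.85 to 7.63 in Gata4 CKO.

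**Figure D3:**
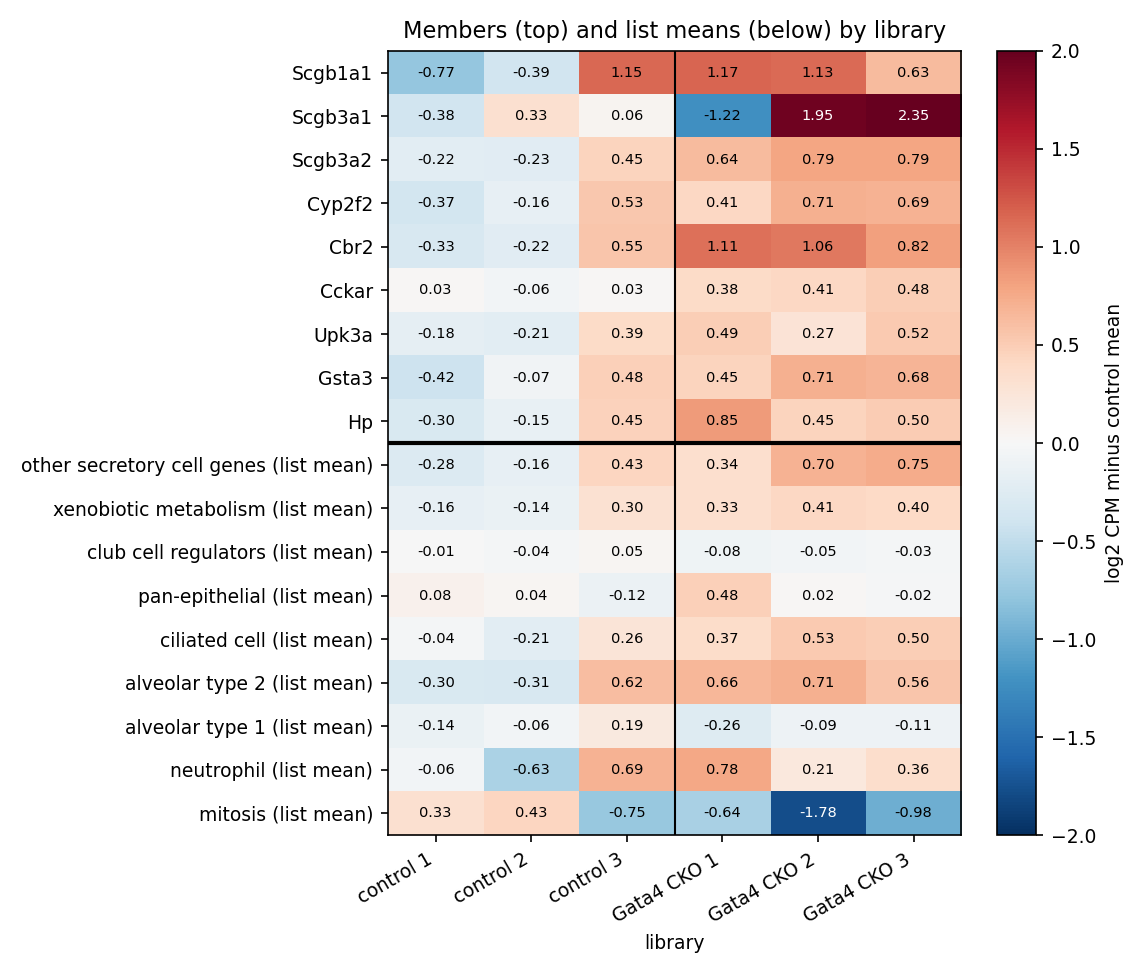
Log2 CPM minus the control mean for the 9 tested members (top) and the mean of the same quantity for 9 gene lists (bottom), one column per library, with colours capped at 2 on either side of 0. Scgb1a1 reads -0.77, -0.39 and 1.15 in controls 1, 2 and 3, and the mitosis list runs the other way, at 0.33, 0.43 and -0.75.

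Other genes of airway secretion were read from a list of 20, which shares 13 genes with the other lists. Of the 17 tested, 15 had positive log2 fold changes and 0 passed, with a median of 0.53. The groups did not overlap for 4 of the 17, all higher, against 7.69% of all genes. Cldn10, a tight junction gene of club cells, had 58.4, 51.9 and 60.1 CPM over controls 1 to 3, then 128.5, 94.6 and 73.4 CPM over Gata4 CKO 1 to 3, a log2 fold change of 0.80. Reg3g, an antimicrobial lectin, had 2.75, 3.12 and 2.52 CPM against 4.10, 12.8 and 14.7 CPM, a log2 fold change of 1.92. Ces1d, a carboxylesterase, stood at 0.79 and Aox3, an aldehyde oxidase, at 1.05, all with edgeR adjusted p-values of 0.529 to 0.551. Without Gata4 CKO 2, Aox3 stood at 0.64. DESeq2 gave Reg3g and Ces1d adjusted p-values of 0.0062 and 0.0390, and edgeR gave Reg3g 0.00878 without Gata4 CKO 1, at a log2 fold change of 2.31. Reg3g was, as was Scgb3a1, highest in Gata4 CKO 2 and 3. Muc5b, a gel-forming mucin named after its values were seen, had 0.75, 1.44 and 0.85 CPM over controls 1 to 3, then 0.54, 2.91 and 5.12 CPM over Gata4 CKO 1 to 3, the same order of the Gata4 CKO libraries as Scgb3a1.

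Genes of xenobiotic metabolism, 25 in the list and 21 tested, had 19 positive and 2 negative log2 fold changes, a median of 0.43 and 0 that passed. The microsomal epoxide hydrolase Ephx1 stood at 0.68, the cytochrome P450 Cyp2s1 at 0.49 and the microsomal glutathione transferase Mgst1 at 0.43 (edgeR adjusted p = 0.529 for each), and Mgst1 at 0.28 when scaled to genes shared by all epithelium. Of its genes, 4 are also in the secretory list, Ces1d among them. Of the family relatives of the secretoglobins and of Bpifa1, 12 of 16 had 0 reads in every library and 3 were tested. Bpifb5 had 1.73, 1.20 and 3.57 CPM over controls 1 to 3, then 4.05, 7.68 and 7.76 CPM over Gata4 CKO 1 to 3, a log2 fold change of 1.56 (edgeR adjusted p = 0.529), Scgb1c1 had 0.94 and Bpifb1 0.79. Scgb1c1 stood at 1.90 without control 3 and 0.48 without Gata4 CKO 1, and Bpifb1 at 1.32 without control 3 and 0.53 without Gata4 CKO 2. Among the other uroplakins, 4 of 5 were tested, 0 passed and the groups overlapped for all 4. Upk3b, which also marks mesothelium, had 0.19, Upk1a 0.25, Upk3bl 0.13 and Upk1b 0.06, and the last pair changed sign under several other settings. Leaving out each library in turn gave 0.10 to 0.42 for Upk1a and 0.07 to 0.30 for Upk3b.

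The regulators of the club cell fate did not share the direction of the members. Of 23 tested, 10 had positive and 13 negative log2 fold changes, 0 passed and the median was -0.07. Nkx2-1 stood at -0.07, Foxa1 at -0.04 and Foxa2 at 0.20. Cebpa, a transcription factor of epithelial maturation, had 119, 121 and 164 CPM over controls 1 to 3, then 245, 201 and 175 CPM over Gata4 CKO 1 to 3, with no overlap and a log2 fold change of 0.62 ± 0.20 (SE, edgeR adjusted p = 0.529). The Notch receptors Notch1 and Notch3 stood at -0.46 and -0.39, and at -0.22 and -0.13 with the length trend removed. The transcription factor Klf5 stood at -0.37. With the length trend left in, all 3 had every Gata4 CKO library below every control (edgeR adjusted p from 0.529 to 0.549). Whether Notch1 and Notch3 stay separated without that trend was not tested. Notch1, Notch3, Klf5 and Cebpa were named for the smallest p in the list, so their separation is partly selected. Over the 23 genes, groups did not overlap for 2 on the higher side, against 7.69% of all genes, and for 4 on the lower side. The share of all genes on the lower side is not given here.

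Markers of other cell types moved with the members in part. All 16 ciliated cell genes had positive log2 fold changes, with a median of 0.49, and 17 of 18 alveolar type 2 genes did, with a median of 0.59. Groups did not overlap for 8 of the 16 and 4 of the 18, all higher, against 7.69% of all genes. At an unadjusted p under 0.05 edgeR had 7 of the 16 and 3 of the 18 on the higher side, against 3.77%. Alveolar type 1 genes had 4 of 14 positive and a median of -0.16. Of 12 genes shared by all epithelium, 9 were positive with a median of 0.21, and their summed level was 1977, 1877 and 1698 CPM in controls and 2409, 1833 and 1787 CPM in Gata4 CKO 1, 2 and 3. When each library was scaled to those 12 genes, the median log2 fold change of the members was 0.41 and all 9 stayed positive. The groups then no longer separated for any of the 9. This scale was 1.32 times the TMM scale in Gata4 CKO 1, the library with the length trend, and 0.87 to 1.00 times elsewhere. Without Gata4 CKO 1 the median of the pan-epithelial genes was 0.015. The part of that library in the lost separation was not tested. Goblet cell genes were low, with summed levels of 6.29 to 7.48 CPM in controls and 8.60 to 12.4 CPM in Gata4 CKO, and Tff2 had 0 reads. The basal cell keratin Krt5 was at most 0.33 CPM in any library. All 7 basal cell genes together had 40.2 to 65.0 CPM in controls and 60.1 to 70.2 CPM in Gata4 CKO. Of 5 tested, 4 had positive log2 fold changes, with a median of 0.70 and 0 passing. Mitosis genes ran against the members, with 15 of 15 negative, a median of -1.14 and 0 that passed. Mki67, the gene of a proliferation antigen, stood at -1.12, the spindle motor gene Kif11 at -1.14, the cytokinesis gene Anln at -1.36 and the transcription factor Foxm1 at -1.38 (edgeR adjusted p = 0.529 for each). Their summed level was 1104, 1169 and 519.5 CPM over controls 1 to 3, then 516, 284 and 464 CPM in Gata4 CKO, so that control 3 was near the Gata4 CKO range there too. The part of these in the members' values was not tested.

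**Figure D4:**
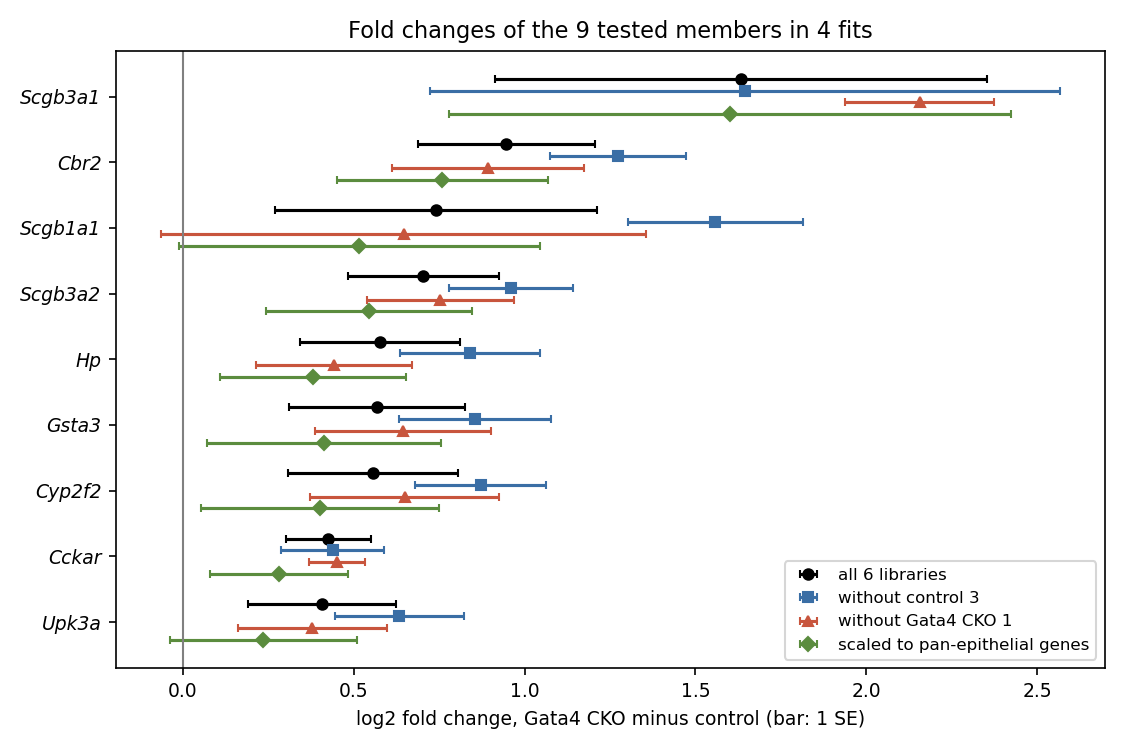
Log2 fold change, Gata4 CKO minus control, of the 9 tested members with its SE (bars) in 4 fits: all libraries, without control 3, without Gata4 CKO 1, and scaled to pan-epithelial genes. All points lie above 0, Scgb1a1 moves from 0.74 to 1.56 without control 3, and Cckar moves least between the fits that leave out a library.

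The genes whose centred profile over the 6 libraries was most like that of Scgb1a1, among 12323 genes at 5 CPM or more on average, were Trf (transferrin), Lyz2 (lysozyme), Ly6a, C6 (a complement component) and Ly6c1, with root mean square differences of 0.21 to 0.26 in log2 CPM. Trf had 277, 237 and 712 CPM over controls 1 to 3, then 764, 793 and 641 CPM over Gata4 CKO 1 to 3. For the mean profile of the 9 members they were Cfap157, Naip2, D630039A03Rik, Nipal1 and Myo1f, at 0.06 to 0.12. With 6 libraries, many genes come close to any profile, and the likeness is a description only.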

How the data were processed

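Whole lungs of 6 embryos were sequenced as 1 library each. Unscaled counts of reads for each Ensembl gene were deposited by the authors as whole numbers, as the values show. A stranded mRNA kit was used, per the labels' protocols. The submitters' processing notes list DESeq2 1.36.0, featureCounts 2.0.1 and STAR 2.7.10a beside GRCm38 and mm10, without roles. For the annotation release and the strand setting, no source used here has a statement.

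Missing symbols (23377) were filled by gene ID for 23239 genes. After filterByExpr (at least 10 reads, 15 in total) and TMM scaling, all 17075 remaining genes entered one quasi-likelihood fit in edgeR 4.0.16 (R 4.3.3), Gata4 CKO minus control, two-sided, with Benjamini-Hochberg adjustment and a threshold of 0.05. The SE is the log2 fold change divided by the square root of F. CPM use TMM-scaled library sizes, and log2 CPM a prior count of 2. Positions and exon lengths come from GENCODE mouse release 21 (GRCm38). DESeq2 1.42.0 and limma-voom (limma 3.58.1) were alternatives. The fit was tested on simulated data.

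The members, lists and tests were chosen with earlier results of these data known. Named genes are all members, up to 4 genes with the smallest p from each of 6 related lists, and 5 genes nearest in profile to Scgb1a1 and to the members' mean. Nkx2-1, Foxa1, Foxa2, Muc5b and cell type markers were named as background. Scaling to 12 pan-epithelial genes and removal of the transcript length trend (spline, 5 degrees of freedom) were chosen after seeing the data. Same-numbered libraries did not deviate together (r = 0.11, -0.30 and 0.12), so the numbers were not used as pairs.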

Additional observations from a re-analysis of the deposited data

How the results depend on the processing

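In all 15 other settings 8 of the 9 tested members kept a positive log2 fold change, and Scgb3a1 did in 14. Its value was -1.26 with the column number as a term. That fit compares Gata4 CKO 1 alone with controls 1 and 2, takes its spread from the pairs that share a number, and called 7308 genes and 9 members (9 at unadjusted p under 0.05), so it describes that library rather than the condition. DESeq2 called 114 genes and 1 member, and limma-voom called 0. Leaving out each library in turn gave 0 to 115 called genes, 0 to 1 called members, 1 to 8 members at unadjusted p under 0.05, 3 to 8 members whose groups did not overlap, and a median from 0.43 to 0.87. The 115 genes and the called member came without Gata4 CKO 1, the 8 and 8 members without control 3, 6 and 5 without overlap without Gata4 CKO 1 and 2, and 2 and 1 members at unadjusted p without control 1 and control 2. Scaled to pan-epithelial genes, 1 member was at unadjusted p under 0.05 and 0 had groups that did not overlap. The cause of these shifts was not tested. With the replicate block 0 genes were called and 7 members were at unadjusted p under 0.05. Removing the length trend left 0 called genes, 3 members at unadjusted p under 0.05 and 2 (Cbr2 and Cckar) with groups that did not overlap. With size factors of the RLE kind 4 members had groups that did not overlap. Upk3bl stood at -0.059 with pan-epithelial scaling, -0.022 with the length trend removed and from -0.20 to 0.42 when each library was left out. Upk1b stood at -0.094, -0.0021 and from -0.12 to 0.45. The other settings, with no filter or without globin genes, changed no call of a member. Over all tested genes, the share whose groups did not overlap on the higher side also moved. It was 7.69% with all libraries, 16.2% without control 3 and 21.5% without Gata4 CKO 1. The remaining overlap counts and the counts at unadjusted p in this section have no such share beside them and are description only. Depth limits Bpifa1 and the lowest Scgb3a1 count.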
